A study of Mus musculus with 2 samples.

Results

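The transcription factor NRF2 (gene Nfe2l2), the regulators around it, and the enzymes of the glutathione and thioredoxin systems were examined in B16, a pigmented melanoma line from mouse. The members are 37 genes given by symbol, all 37 of which were matched to an Ensembl identifier among the 18224 genes of the deposited table. All 37 passed the minimum of a mean of 1 CPM (counts per 1000000 reads, scaled as the authors deposited them), as did 12243 genes in all. The LY500307 group was 1 library of cells treated with LY500307, or erteberel, a small molecule that activates estrogen receptor beta selectively. The control group was 1 library of control-treated B16 cells. Dose, duration, the nature of the control treatment and the number of cultures behind a library are not stated in these sources. With 1 library per group no difference has a replicate check, and no value can be carried over from these libraries to the treatments.

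NRF2 binds DNA together with a small MAF protein at short elements named antioxidant response elements. The adaptor KEAP1 hands NRF2 to the CUL3 ubiquitin ligase for degradation when cells are not stressed, and the repressor BACH1 competes for the same elements. Because the control acts mainly on the protein, the Nfe2l2 transcript is not a measure of NRF2 activity. Glutathione and thioredoxin are the main thiol buffers of the cell. The first is made from imported cystine, spent by transferases and peroxidases and reduced again with NADPH, and the second is kept reduced by thioredoxin reductases and feeds the peroxiredoxins. Pigment synthesis in melanocytic cells produces quinones and hydrogen peroxide, which these systems remove.

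Recovered depth was 14698853 reads for the LY500307 library and 16704950 for the control library, so that 1 read was worth 0.0676 CPM in the LY500307 library and 0.0603 CPM in the control library. All 8 melanocyte markers were measured, at a summed 26339 CPM in the LY500307 library and 27464 CPM in the control library. Of 8 leukocyte markers 1 was listed, at 0.135 CPM in the LY500307 library and 0.241 CPM in the control library. Of 6 fibroblast markers 4 were listed, with a summed 6.96 CPM in the LY500307 library and 7.53 CPM in the control library. Of 4 endothelial and 4 keratinocyte markers 0 were listed.

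Most members had somewhat higher values in the LY500307 library, and 6 passed the threshold. Folds were taken as log2((LY500307 + 1)/(control + 1)) in CPM, here called the log2 fold. On this scale 6 of the 37 members were at least 25% higher, against 8.32% of all measured genes, and 0 were at least 20% lower, against 6.59%. Both limits are the same distance, 0.32, on the log2 scale. These 6 were Slc7a11, Nqo1, Gstm1, Gstm5, Sod1 and Gsto1. The added 1 makes this scale understate differences of low genes. By the plain ratio of reads 8 members were at least 25% higher, Glrx and Mgst3 besides these 6, against 10.3% of all measured genes. The median log2 fold of the members was 0.11, beside -0.0075 over all measured genes. It was positive for 30 members and negative for 7, whereas 48.3% of all measured genes had a positive value. Members were chosen with earlier results of these data known, so their shares here and below may not be independent of the values. Slc7a11, a cystine importer, had the highest value at 0.69, and Nfe2l2 itself the lowest at -0.16. Before rounding, just past the threshold were Gsto1 at 0.32 and Sod1 at 0.33, and just short of it were Glrx at 0.32 and Mgst3 at 0.30. In bulk RNA, a larger share of cells with a transcript and more of it per cell cannot be told apart.

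Ratios below are of recovered reads, LY500307 over control, with exact 95% Clopper-Pearson intervals that cover counting error only. PCR reads without molecular identifiers are not independent molecules, so the true error is larger. The interval lay above 1 for 22 of 37 members, against 17.2% of all measured genes. It lay below 1 for 4 members, against 19.2%, and included 1 for 11. Those 4 were Nfe2l2, Mafg, Abcc1 and Txn2, and with each library scaled by its own total of reads the count below 1 was 1, Nfe2l2. Intervals narrow with depth and most members are well expressed. Among the 24 members with a mean of at least 50 CPM, intervals lay above 1 for 13 and below 1 for 4, where 4624 genes of that level gave 19.8% and 30.1%. Of these 24 only Sod1 was past the threshold, a size that 1.84% of genes at that level reached. The other 5 members past the threshold had lower means.

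**Figure D1:**
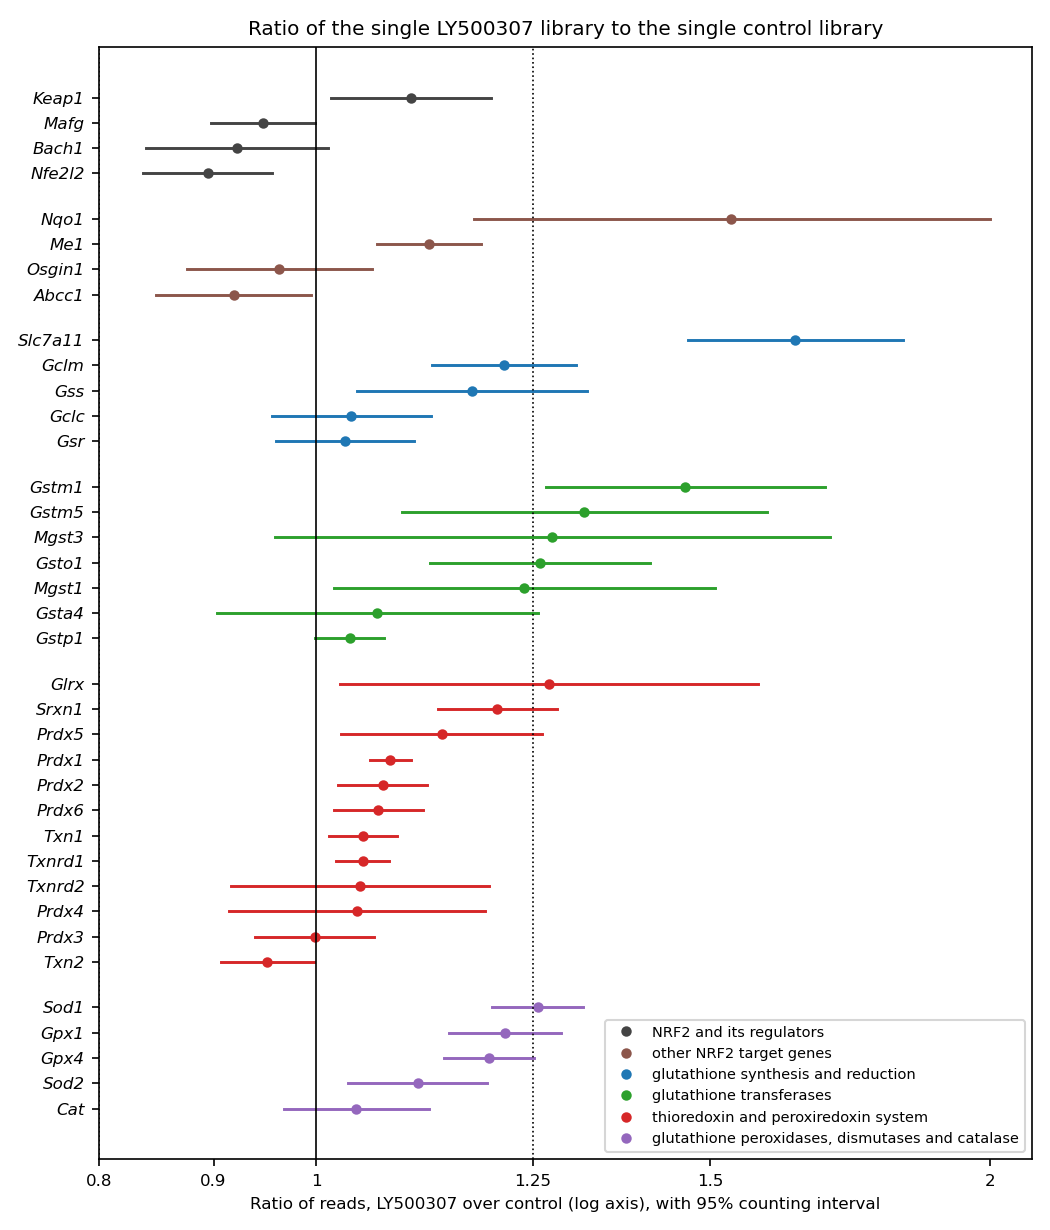
Ratio of recovered reads in the LY500307 library over the control library for the 37 members, on a log axis. Points are ratios, bars are 95% counting intervals, colours are the 6 roles, the solid line marks a ratio of 1 and the dotted line a ratio 25% above it, which 8 members pass by this plain ratio; Slc7a11 lies farthest right, at 1.64, and 3 of the 4 genes of NRF2 and its regulators lie left of 1.

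The members differed widely in level when reads were divided by the length of the principal annotated transcript. Prdx1 and Gstp1 were the most abundant, with nearly equal means. Prdx1 was at 500.4 CPM per kb in the LY500307 library and 464 in the control library. Gstp1 was at 489.9 CPM per kb in the LY500307 library and 473 in the control library, so that their order differed between the libraries. Txn1 and Sod1 came next. The lowest were Slc7a11, at 5.81 CPM per kb in the LY500307 library and 3.55 in the control library, and Nqo1, at 6.0 CPM per kb in the LY500307 library and 3.92 in the control library. By mean level per kb, Prdx1 stood at the 98.9th percentile of measured genes, Sod1 at the 98.5th, Gsto1 at the 79.4th, Gstm1 at the 66.1st, Gstm5 at the 59.8th, Nqo1 at the 30.9th and Slc7a11 at the 29.6th. The members past the threshold thus included both of the least abundant members and 1 of the most abundant. Which transcript of a gene the cells use was not measured, and the order of neighbouring genes depends on that length.

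**Figure D2:**
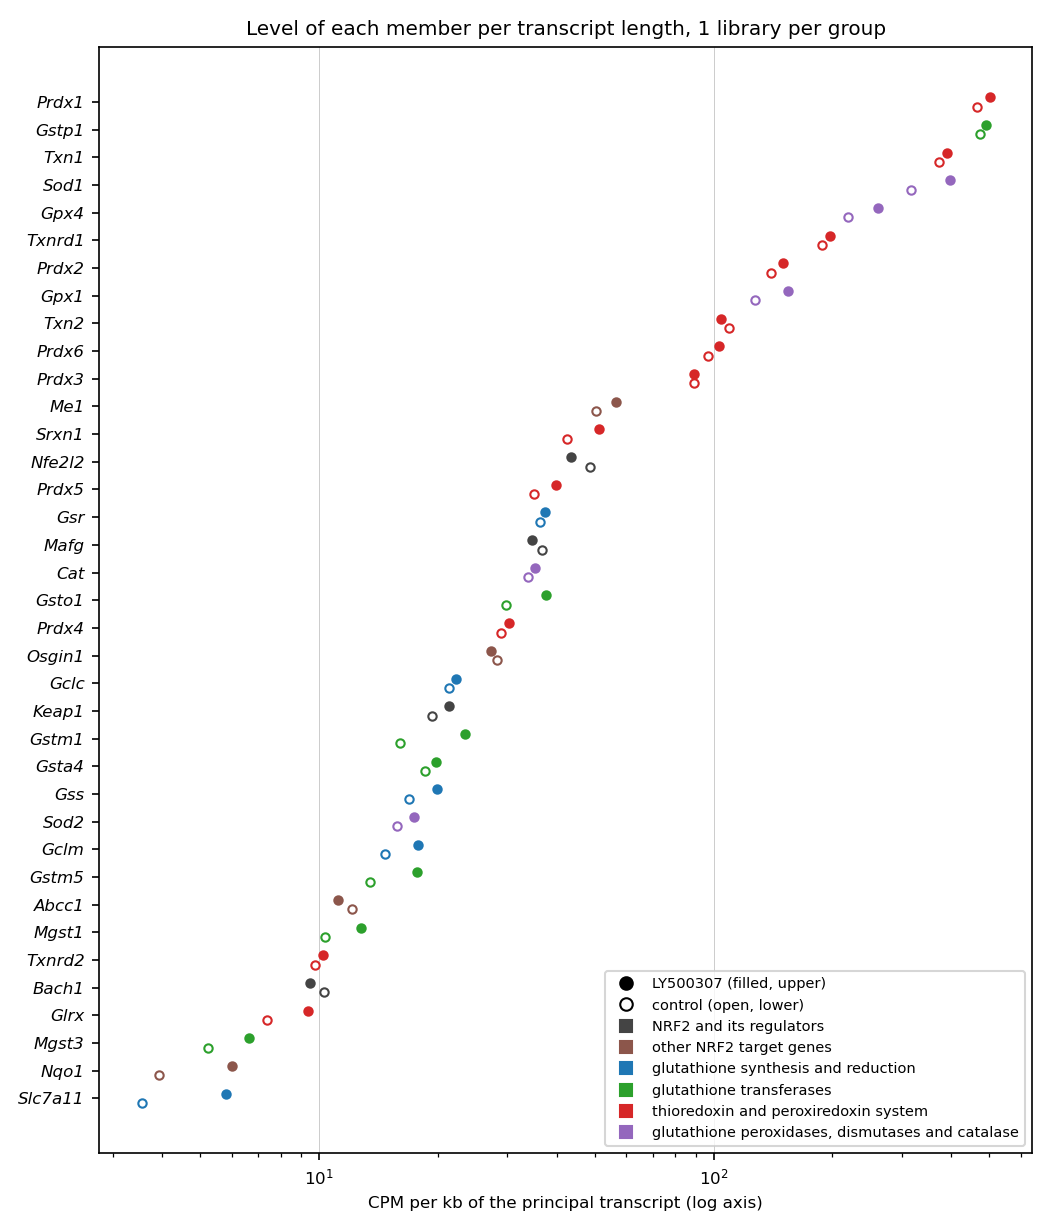
Level of each member in CPM per kb of its principal transcript, on a log axis, ordered by the mean. Filled points are the LY500307 library and open points below them the control library; the 2 points of a gene lie close together beside the spread between genes, with the widest gaps at Slc7a11, Nqo1 and Gstm1.

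Promoters of the members were searched for the sequence that NRF2 and small MAF proteins are known to bind. RefSeq promoters (build GRCm38.p6, 250 bases before to 50 after each start) were matched by symbol for 32 of 37 members; Gclc, Gsr, Prdx6, Gsta4 and Abcc1 had none there. The motif TGACNNNGC, on either strand, was found at 1 or more starts of 10 of 32 members (31.2%) and of 3781 of 27025 genes (14.0%). The 10 were Nfe2l2, Mafg, Gclm, Gstm5, Mgst1, Prdx1, Txnrd1, Srxn1, Sod1 and Me1. Their median log2 fold was 0.22, and that of the 22 members without a match 0.14. Of the members past the threshold, Gstm5 and Sod1 held a match, and Slc7a11, Nqo1, Gstm1 and Gsto1 held none in this window. With an A added at its end the motif was found in 1 of 32 members (3.1%), Txnrd1, and in 3.45% of genes, so that the higher share among members was not seen with the longer form. A match is a description of the letters and not a binding site, and known elements of such genes often lie farther upstream. The matches that lie wholly before the start are shown to let a reader see the letters behind this count, on the strand of the gene, with the motif or its reverse complement in capitals.
Gclm, chr3:122245412-122245441, plus strand: cgctcccgggcGCACCGTCAactctcacga
Gstm5, chr3:107895801-107895830, plus strand: gcaccgcccacTGACCACGCggagggcggg
Mgst1, chr6:138140460-138140489, plus strand: ggcggggcttgGCACGGTCAggaggcgggg
Sod1, chr16:90220695-90220724, plus strand: tgccaaggtggGCGTGGTCAgactcaggcc
Prdx1, chr4:116685455-116685484, plus strand: ccagggaaagcGCTGAGTCAtcccccgtag
Txnrd1, chr10:82859103-82859132, plus strand: actggatttttGCTTTGTCAttctgacacg
Mafg, chr11:120633751-120633780, minus strand: tctctgcaggaGCACGGTCAacccggcgag
Nfe2l2, chr2:75704885-75704913, minus strand: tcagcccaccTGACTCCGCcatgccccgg
The matches of Me1 and Srxn1 reach into or lie behind the start. The AP-1 site TGANTCA, which can overlap this motif, was found in 7 of 32 members (21.9%) and in 9.0% of genes. It overlapped TGACNNNGC in Prdx1, whose capitals above contain it, and in Me1. The 7 members were Srxn1, Prdx1, Gstm5, Gstp1, Glrx, Osgin1 and Me1. Both sites of Srxn1 and the site of Gstp1 are shown because elements bound by NRF2 are known to include AP-1-like cores, which the first motif can miss.
Srxn1, chr2:152105411-152105438, plus strand: ctcggagggccTGAGTCAccacgctgtg
Srxn1, chr2:152105468-152105495, plus strand: caaattcacccTGAGTCAgcggccgggc
Gstp1, chr19:4037970-4037997, minus strand: ctccaacgtgtTGAGTCAgcatccgggg

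None of the 4 genes of NRF2 and its regulators was past the threshold, and their median log2 fold was -0.10. The interval lay below 1 for Nfe2l2 and Mafg, above 1 for Keap1 and included 1 for Bach1. Of all genes with at least 50 CPM, as these 4 have, 30.1% lay below 1 and 19.8% above. Nfe2l2 was at 108 CPM in the LY500307 library and 120.5 CPM in the control library, a ratio of 0.895 (0.837 to 0.956). Keap1, which encodes the adaptor that marks NRF2 for degradation, was at 77.1 CPM in the LY500307 library and 69.9 CPM in the control library, a ratio of 1.1 (1.02 to 1.2). The intervals of these opposed partners lay on opposite sides of 1, that of Keap1 beginning close to 1, and a joint change was not tested. Bach1, the repressor, was at 55.7 CPM in the LY500307 library and 60.4 CPM in the control library, with an interval that included 1 (0.84 to 1.01). Mafg, the small MAF partner, was at 171 CPM in the LY500307 library and 180.3 CPM in the control library, and its interval of 0.898 to 0.999 ended just below 1 but included 1 under the own-total scaling. Exons of Keap1 overlap an antisense gene and those of Mafg overlap Sirt7 on the same strand, and whether counting used strand was not stated in these sources.

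Genes of glutathione synthesis differed at cystine import more than at the ligases. Slc7a11, the cystine and glutamate exchanger subunit, was at 53.6 CPM in the LY500307 library and 32.7 CPM in the control library, a ratio of 1.64 (1.47 to 1.83) on 793 LY500307 and 543 control reads. Its interval lay wholly above those of the other 4 genes of this role. Gclm, the modifier subunit of the rate-limiting glutamate-cysteine ligase, was at 99.7 CPM in the LY500307 library and 82.1 CPM in the control library, a ratio of 1.21 (1.13 to 1.31). Gclc, the catalytic subunit of the same enzyme, was at 75.9 CPM in the LY500307 library and 73.2 CPM in the control library, and its interval of 0.955 to 1.13 included 1. The intervals of both subunits nearly met without overlapping, and the difference between the subunits was not tested. Gss, glutathione synthetase, had a ratio of 1.17 (1.04 to 1.32), and its exons overlap Acss2 on the other strand. Gsr, which reduces oxidised glutathione, was at 100.1 CPM in the LY500307 library and 97.2 CPM in the control library, with an interval of 0.959 to 1.11. Exons of Gclm overlap 1 gene on each strand. All 5 log2 folds were positive, with a median of 0.23.

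Glutathione transferases had the highest median of the 6 roles, 0.30, and 3 of the 7 were past the threshold on the higher side, beside 8.32% of all measured genes. These enzymes couple glutathione to electrophiles. Gstm1 was at 30.1 CPM in the LY500307 library and 20.6 CPM in the control library, a ratio of 1.46 (1.27 to 1.69). Gstm5 was at 16.8 CPM in the LY500307 library and 12.7 CPM in the control library, a ratio of 1.32 (1.09 to 1.59). Gsto1, an omega-class enzyme with thiol transferase activity, was at 44.3 CPM in the LY500307 library and 35.2 CPM in the control library, a ratio of 1.26 (1.12 to 1.41). Both mu-class members were thus higher, Gstm1 with the narrower interval. The membrane-bound Mgst1 had a ratio of 1.24 (1.02 to 1.51) and Mgst3 of 1.27 (0.958 to 1.7), on 108 LY500307 and 95 control reads. Gsta4, an alpha-class enzyme known for the lipid peroxidation product 4-hydroxynonenal, had a ratio of 1.07 (0.903 to 1.26). Gstp1, by far the most abundant transferase per kb, was at 402 CPM in the LY500307 library and 389 CPM in the control library, a ratio of 1.04 (0.999 to 1.07). The log2 folds of all 7 were positive, and that of the most abundant was the lowest. Gstp1 shares near-identical sequence with Gstp2 and a pseudogene, and Gstm1 with a pseudogene on 4 LY500307 and 6 control reads, so reads of the first pair could be split; exons of Gstm5 overlap an antisense gene.

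The thioredoxin and peroxiredoxin system held the members with the highest CPM, Prdx1, Txnrd1 and Txn1, and small differences. None of its 12 genes was past the threshold, and the median log2 fold was 0.081. Txn1, cytosolic thioredoxin, was at 411 CPM in the LY500307 library and 391 CPM in the control library, a ratio of 1.05 (1.01 to 1.09). Txnrd1, the selenoenzyme that reduces it, was at 697 CPM in the LY500307 library and 664 CPM in the control library, a ratio of 1.05 (1.02 to 1.08). Both were therefore close to the control value, with narrow intervals. The mitochondrial partners were Txn2, at 214 CPM in the LY500307 library and 224 CPM in the control library with a ratio of 0.951 (0.907 to 0.998), and Txnrd2, with a ratio of 1.05 (0.916 to 1.2). Srxn1, sulfiredoxin, which repairs overoxidised peroxiredoxins, was at 144 CPM in the LY500307 library and 119.6 CPM in the control library, a ratio of 1.21 (1.13 to 1.28). Its interval lay above those of Txn1 and Txnrd1. Glrx, glutaredoxin, had the highest ratio of this role, 1.27 (1.03 to 1.58), on 187 LY500307 and 165 control reads.

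Peroxiredoxins, which reduce hydrogen peroxide with thioredoxin or glutathione, had ratios at or slightly above 1. Prdx1 was at 1148 CPM in the LY500307 library and 1064 CPM in the control library, a ratio of 1.08 (1.06 to 1.1). Prdx2 and Prdx6, also cytosolic, had ratios of 1.07 (1.02 to 1.12) and 1.07 (1.02 to 1.12). Prdx5 was at 50.4 CPM in the LY500307 library and 44.3 CPM in the control library, a ratio of 1.14 (1.03 to 1.26). The mitochondrial Prdx3 was at 132 CPM in the LY500307 library and 132 CPM in the control library, with no detectable difference (interval 0.939 to 1.06). Prdx4, of the endoplasmic reticulum, had a ratio of 1.04 (0.915 to 1.19). Intervals lay above 1 for 4 of the 6, beside 17.2% of all measured genes and 19.8% of those with at least 50 CPM, and included 1 for both others. Txn1, Prdx1 and Prdx2 have near-identical pseudogenes, and exons of Prdx2, Prdx5 and Txnrd2 overlap genes on the other strand.

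Of the 5 genes for glutathione peroxidases, superoxide dismutases and catalase, intervals lay above 1 for 4, beside 19.8% of all genes with at least 50 CPM, and Sod1 alone was past the threshold. Sod1, the copper and zinc superoxide dismutase, was at 254 CPM in the LY500307 library and 202 CPM in the control library, a ratio of 1.26 (1.2 to 1.32). Gpx1, the main cytosolic glutathione peroxidase, was at 165 CPM in the LY500307 library and 136 CPM in the control library, a ratio of 1.21 (1.15 to 1.29). Gpx4, which reduces lipid hydroperoxides and blocks ferroptosis, was at 251 CPM in the LY500307 library and 209.7 CPM in the control library, a ratio of 1.19 (1.14 to 1.252). These 3 genes had nearly equal ratios, with intervals that overlap. Sod2, the mitochondrial manganese enzyme, had a ratio of 1.11 (1.03 to 1.19), and Cat, catalase, of 1.04 (0.968 to 1.12). The median log2 fold of the 5 was 0.26. Gpx4, Sod1 and Sod2 have near-identical copies; Gpx4-ps2, a pseudogene, held 720 reads in the LY500307 library and 657 in the control library.

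The last 4 members are known NRF2 targets outside these systems. Nqo1, a quinone reductase widely used as a reporter of NRF2, was at 9.32 CPM in the LY500307 library and 6.09 CPM in the control library, a ratio of 1.53 (1.18 to 2.0) on only 138 LY500307 and 101 control reads. Me1, malic enzyme, which makes NADPH, had a ratio of 1.12 (1.06 to 1.18); it has near-identical copies and an antisense partner. Osgin1 was at 54.7 CPM in the LY500307 library and 56.8 CPM in the control library, with an interval of 0.875 to 1.06. Abcc1, which exports glutathione conjugates, was at 75.8 CPM in the LY500307 library and 82.5 CPM in the control library, a ratio of 0.919 (0.848 to 0.995). These 4 targets thus did not share a direction, and their median log2 fold was 0.056.

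**Figure D3:**
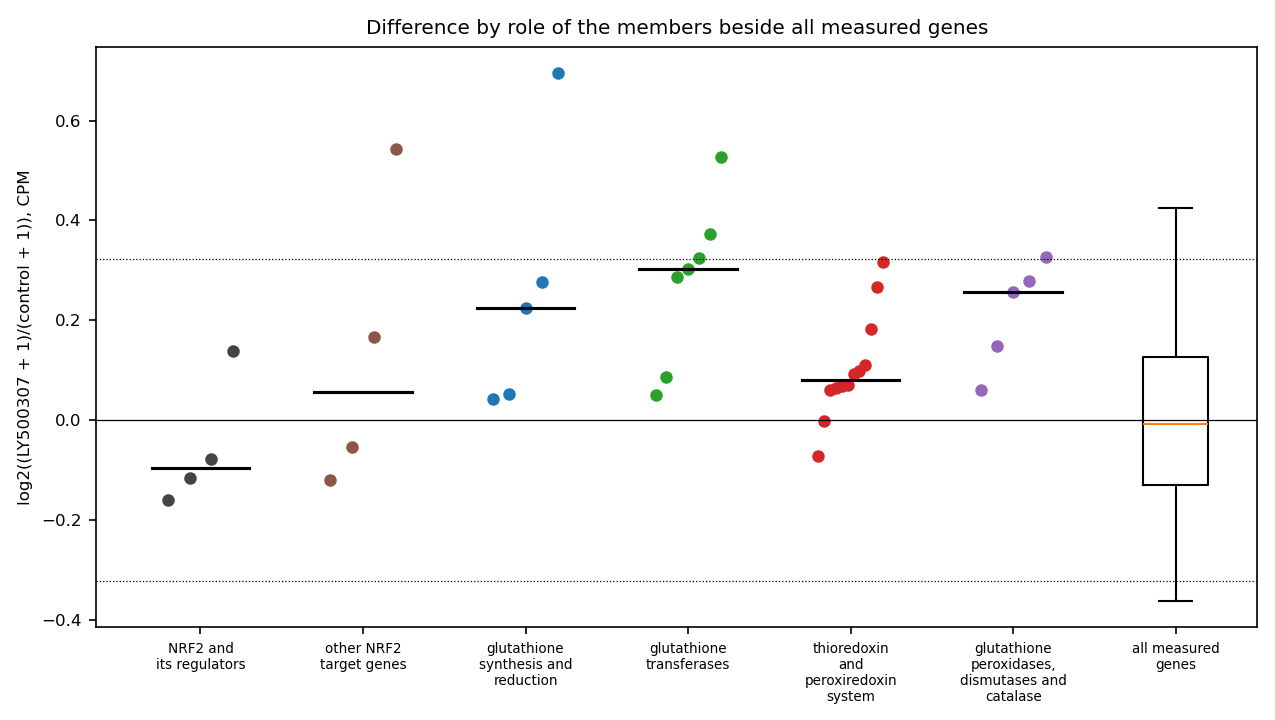
Log2 fold of each member by role, with a black bar at the median of each role, beside a box of all 12243 measured genes (box, quartiles; centre line, median; whiskers, 5th and 95th percentiles at -0.36 and 0.43). Dotted lines mark the threshold of 0.32 in either direction; the transferases have the highest median, 0.30, and NRF2 and its regulators the lowest, -0.10.

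Values of the roles overlapped, and with 1 library per group the difference between roles was not tested. For a comparison by compartment, Txn1, Txnrd1, Prdx1, Prdx2, Prdx6 and Sod1 were taken as the cytosolic relatives of mitochondrial members; their median log2 fold was 0.10, and intervals lay above 1 for 6 of 6, beside 19.8% of all genes with at least 50 CPM. Other cytosolic members, such as Gclc, Gstp1 and Gsta4, had intervals that included 1. Of the mitochondrial Txn2, Txnrd2, Prdx3 and Sod2, the interval lay above 1 for Sod2 and below 1 for Txn2, and their median was 0.031. Prdx5 was placed in neither list, with a log2 fold of 0.18 and an interval above 1 (1.03 to 1.26). Medians of such short lists depend on where a gene like Prdx5 is placed. The interval counts are not matched for depth, since means began at 228 CPM for the cytosolic list and 28.7 CPM for the mitochondrial. Nor is the share of 19.8% matched to the cytosolic list, since it covers genes from 50 CPM upward and intervals narrow with depth. Txnrd1 and Txnrd2 both had a ratio of 1.05, on 10317 and 435 LY500307 reads, and only the interval of Txnrd1 lay above 1. The cytosolic and mitochondrial forms of thioredoxin had intervals on opposite sides of 1, but that of Txn2 included 1 under the own-total scaling. Among the 4 selenoproteins, Gpx1 and Gpx4 had intervals wholly above that of Txnrd1, while Txnrd2 had a wide one.

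Transcript length moved with these differences. The median log2 fold of all measured genes was 0.027 in the 20% with the shortest transcripts, up to 1543 bases, and -0.027 in the 20% with the longest, from 4851 bases. The 15 members among those shortest transcripts had a median of 0.28 and the other 22 of 0.081. After centring on genes of like length and GC content the median of all members was 0.11, and Slc7a11, Nqo1, Gstm1 and Gstm5 remained past the threshold, against 8.34% of all measured genes, while Sod1 was at 0.25 and Gsto1 at 0.29.

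Other genes of these pathways, from a list of 90 symbols also chosen with earlier results of these data known, were looked up in the same way. Of these 81 were listed and 74 measured; 16 of them (21.6%) lay past the threshold on the higher side and 5 (6.76%) on the lower, beside the 8.32% and 6.59% of all measured genes, and their median log2 fold was 0.13. Intervals lay above 1 for 34 of the 74 and below 1 for 13, beside 17.2% and 19.2% of all measured genes; the share below 1 was thus near that of all genes. Among 19 measured NRF2 targets 6 (31.6%) were higher and 0 lower. These were the stress-induced heme oxygenase gene Hmox1, at 137 CPM in the LY500307 library and 103 CPM in the control library with a log2 fold of 0.40; the ferritin heavy chain gene Fth1 at 0.51; the heme transporter gene Slc48a1 at 0.51; the epoxide hydrolase gene Ephx1 at 0.60; the carbonyl reductase gene Cbr3 at 0.67; and Akr1b8 at 0.33. Ftl1, the ferritin light chain, was at 0.18 and G6pdx, the first enzyme of the pentose phosphate pathway, at 0.31, both short of the threshold. Hmox1, Fth1 and Slc48a1, which act on heme or iron, were thus among the 6 beside Ephx1, Cbr3 and Akr1b8, and Ftl1 was not. Heme and iron genes were not taken as a list of their own.

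Around glutathione itself, Slc3a2 and Ggt1 were past the threshold on the higher side and Cth and Oplah on the lower. Slc3a2, the heavy chain that carries the Slc7a11 protein to the membrane, was at 426 CPM in the LY500307 library and 316 CPM in the control library, a ratio of 1.35 (1.3 to 1.4). Ggt1, which splits extracellular glutathione, was at 19.5 CPM in the LY500307 library and 11.8 CPM in the control library, a ratio of 1.66 (1.38 to 2.0). Both subunit genes of the cystine exchanger were therefore past the threshold. Cth, which makes cysteine from cystathionine, was at 7.84 CPM in the LY500307 library and 11 CPM in the control library, a ratio of 0.715 (0.561 to 0.907), and Oplah, an enzyme that returns 5-oxoproline to glutamate, had a ratio of 0.644 (0.446 to 0.923) on 50 LY500307 and 87 control reads. Of 12 measured genes of this list 2 (16.7%) were higher and 2 (16.7%) lower, beside 8.32% and 6.59% of all measured genes.

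Of the further transferases 6 of 12 measured were past the threshold on the higher side and 0 on the lower, beside 8.32% and 6.59% of all measured genes, with a median log2 fold of 0.29. Gstm7 and Gstm4 had the highest values, 0.64 and 0.62, but on 29 LY500307 and 15 control reads for Gstm7 and on 63 LY500307 and 40 control reads for Gstm4. Gstt3, Gstk1, Gstz1 and Gstp2 were the other 4. Gstp2 shares near-identical sequence with the far more abundant Gstp1, so its reads could be split. Summed with listed copies, 15 of the other pathway genes were past the threshold on the higher side, against 8.31% of all genes. Gsta2 was the lowest at -0.30, with an interval that included 1. Gsta1 was at -0.24 on 298 LY500307 and 398 control reads, with an interval below 1 (0.72 to 0.978). Gsta1 and Gsta2 share near-identical sequence, so their reads could be split.

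Txnip, which encodes an inhibitor of thioredoxin and has a pathway of its own, was the lowest of all these genes, at 12.3 CPM in the LY500307 library and 19.5 CPM in the control library, a ratio of 0.63 (0.522 to 0.757). Sesn2, a sestrin induced by several stresses, was the only gene of the thioredoxin and glutaredoxin list above the threshold, at 0.50, and Msra, a methionine sulfoxide reductase gene, was at -0.39. Among 11 measured regulators, Sqstm1, whose protein binds KEAP1, was at 1411 CPM in the LY500307 library and 1113 CPM in the control library, a ratio of 1.27 (1.24 to 1.29). Maff, a small MAF gene, was at -0.45 on 50 LY500307 and 83 control reads. For 6 of these 11 regulators the interval lay below 1, beside 19.2% of all measured genes and 30.1% of those with at least 50 CPM. For 2 it lay above 1, beside 17.2% and 19.8%. Of those below, the intervals of Cul3, Dpp3 and Palb2 ended close to 1, at 0.994, 0.989 and 0.987. Such ends depend on the scaling, as own totals moved the upper end of Nfe2l2 from 0.956 to 0.969.

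**Figure D4:**
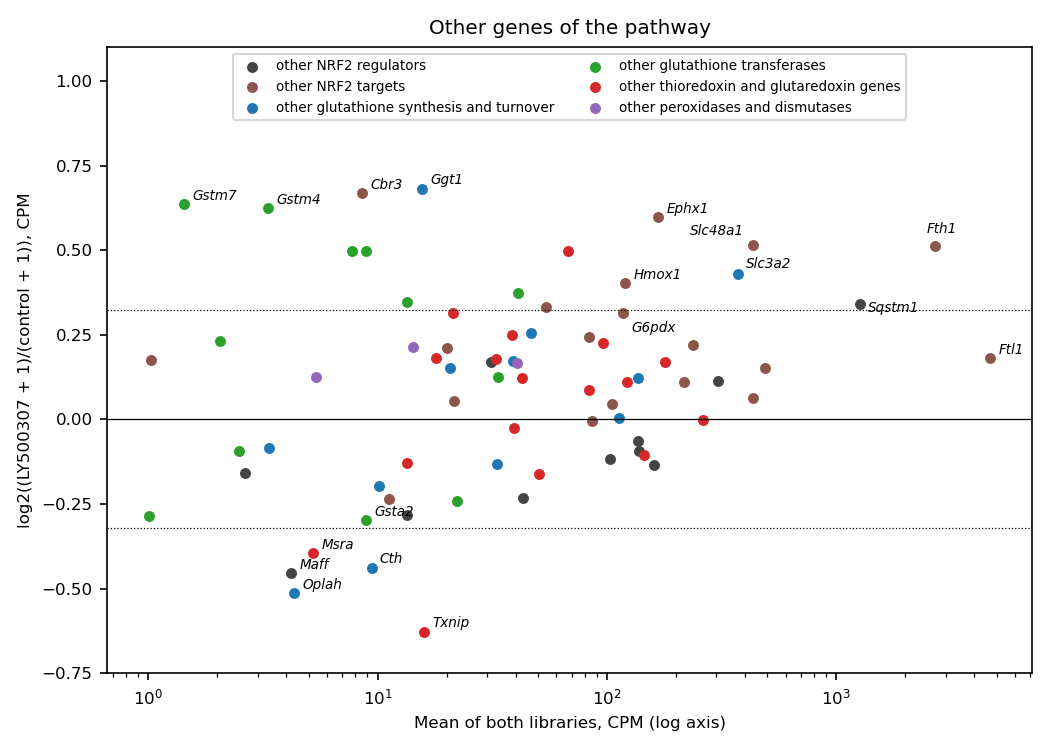
Log2 fold against the mean of both libraries in CPM (log axis) for the 74 other measured genes of the pathway, coloured by list. Dotted lines mark the threshold of 0.32 in either direction; 16 genes lie above the upper line and 5 below the lower, Txnip lowest at -0.63.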

How the data were processed

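Stranded total RNA libraries were made after removal of ribosomal RNA, per the labels' protocols. CASAVA 1.8 and Bowtie2 and the build mm9 are listed, without roles, in the submitters' processing notes; the counter, the annotation and the scaling were not stated in these sources. Each deposited value is a signal of 1 gene. Low values in a library fall on even steps, as reads times a constant would. Divided by that step, 99.9% of nonzero values in either library were whole within 1% of a read. Division by the average of the deposited totals gave CPM. A gene with no read is listed near 0 and was set to 0.

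Symbols, principal transcripts (APPRIS) and overlaps came from GENCODE M21, on another build than the files, so the only positions given are those of the RefSeq promoter matches, in their own build. A near-identical copy had a blastn 2.17.0 hit of 95% identity or more, 100 bases or more, and 50% or more of the shorter transcript. An exact binomial test of reads, adjusted by Benjamini-Hochberg, compared the libraries and not the treatments; at an adjusted threshold of 0.05 it called 1472 of 12243 genes higher and 1717 lower. The calculations were tested on simulated data. Members and lists were chosen with earlier results of these data known. All members are reported. Of other pathway genes the 6 highest, the 6 lowest and 7 fixed genes are named. Akr1b8, Sesn2, Gstt3, Gstk1, Gstz1 and Gstp2, past the fold, were named after their values were seen. Cul3, Dpp3, Palb2 and Gsta1, within the fold, were also named after their values were seen. Scaling factors came from edgeR 4.0.16 and DESeq2 1.42.0 in R 4.3.3, and the rest from Python 3.11.15 with scipy 1.17.1, numpy 2.4.6, pandas 2.3.3 and matplotlib 3.10.9.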

Additional observations from a re-analysis of the deposited data

How the results depend on the processing

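Alternatives were other folds, pseudocounts, minimums, scalings and intervals, sums with copies, leaving out members with a copy, the binomial test and, chosen after seeing the data, centring on length and GC content, a minimum of 50 CPM, a longer motif, the first start only and the plain ratio of reads. No member was lower by the threshold under any scaling, pseudocount or minimum tried. The count of members higher by the fold was 1 (Slc7a11) at 1.5-fold, near the 2.25% of all genes there, 0 at 2-fold, against 0.253%, and 3 (Slc7a11, Nqo1 and Gstm1) with a pseudocount of 5 CPM, against 3.53%. It was 4 after centring, against 8.34%, 4 without the 9 members that have a copy, against 8.31%, 7 with own totals, against 9.1%, and 8 with a pseudocount of 0.1 CPM, against 10.1%; under the other scalings, minimums and sums on the log2 fold it was 6. For the other genes of the pathway the counts higher and lower were 5 and 1 at 1.5-fold, against 2.25% and 1.39% of all genes, and 0 and 0 at 2-fold. Their count lower was 1 with a pseudocount of 5 CPM, against 2.66%, and 3 with a mean of at least 5 CPM, against 4.62%. Members with an interval below 1 numbered 1 with each library's own total, against 16.3% of all genes, 1 with 99% intervals, against 13.3%, and 1 by the binomial test, against 14.0%. That test called 18 higher, against 12.0%. Members with an interval above 1 numbered 14 without members with a copy, against 17.2%, and 13 with a mean of at least 50 CPM, against 19.8%, where fewer genes remain. Without members with a copy the median of the NRF2 targets turned to -0.054, since Me1 leaves, that of peroxidases, dismutases and catalase came to 0.17 and that of selenoproteins to 0.069. Centring gave 0.19 for peroxidases, dismutases and catalase. The longer motif, with an A added at the end, was found in 1 member (3.1%) and in 3.45% of genes. The median of all members ranged from 0.089 to 0.13. No paired analysis was possible because each group is 1 library. Genes with under about 200 reads, such as Nqo1, Mgst3 and Glrx, are limited by depth.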
